A study of Mus musculus with 10 samples.

Results

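The genes described here encode the VIP, secretin and PACAP family: the peptide precursors Vip, Sct and Adcyap1 and the receptors Vipr1, Vipr2 and Adcyap1r1. These 6 genes, of 27933 gene symbols in the deposited table, were chosen by name and not by their values. The cells were amacrine cells, interneurons of the inner retina most of which release GABA or glycine, taken from mice of a cre-GFP line at postnatal day 19 and profiled one by one in 10 libraries of 1 group. The sort kept living cells (Calcein Blue positive) without GFP, CD133 or CD73 signal, and libraries were made with Chromium 3′ v2 chemistry and sequenced on an Illumina HiSeq. By their labels 1 library belonged to batch 1, 5 belonged to batch 2 and 4 to batch 3. Nothing in the labels ties the libraries to separate animals, so the spread that a p-value measures here is that between libraries and may be technical.

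Levels were compared between cells chosen by their counts of marker genes in unique molecular identifiers (UMIs, 1 per captured RNA molecule). The Slc6a9 gate took cells with at least 2 UMIs of Slc6a9, the glycine transporter of glycinergic cells, and none of Gad1 or Gad2. The Gad gate took cells with at least 2 UMIs of Gad1 and Gad2 together, the enzymes that make GABA, and none of Slc6a9. The other gates asked for at least 3 UMIs of Gjd2 (connexin 36, the gap junction protein of AII amacrine cells), 2 of Slc17a8 (the vesicular glutamate transporter VGLUT3), 2 of Chat and Slc18a3 together (acetylcholine synthesis and loading, in starburst cells), 10 of Npy or 5 of Tac1. Each of these was set against all other cells of the same libraries. Fits named as against other Slc6a9-gated or other Gad-gated cells kept the whole gate, including its cells outside that transmitter class. They set it against the cells of that transmitter gate outside it. Gates overlap, and they are UMI minimums and not cell types. A level is in CPM, the UMIs of a gene per 1000000 UMIs of the gated cells of a library.

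As background, VIP, secretin and PACAP are related peptides whose receptors couple to the stimulatory G protein and raise cyclic AMP. The products of Vipr1 (VPAC1) and Vipr2 (VPAC2) bind both VIP and PACAP, while that of Adcyap1r1 (PAC1) prefers PACAP. Secretin acts through a receptor of its own, the product of Sctr. In the retina, VIP is known from GABAergic amacrine cells, and PACAP from ganglion cells that contain melanopsin.

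The table held 32523 cells, 950 to 4738 per library, with 6302659 to 26028492 UMIs per library and median depths of 3296.5 to 5717 UMIs per cell. Genes that mark amacrine cells summed to 4380 CPM in all cells, against 59.1 CPM for rod, 62.2 CPM for cone and 37.0 CPM for bipolar markers. Genes listed as marks of Müller glia stood higher than these 3 lists, at 820 to 1014 CPM over libraries. Of the cells, 4556 (14%, median 3664 UMIs) lay in the Slc6a9 gate and 16415 (50.5%, median 5411 UMIs) in the Gad gate, 6615 held UMIs of both transmitter classes and 2120 of neither. The Gjd2 gate held 1940 cells, the Slc17a8 gate 666, the Chat and Slc18a3 gate 651, the Npy gate 1548 and the Tac1 gate 2303. The Gad gate took in 77.6% of the Chat and Slc18a3 gate, 77.3% of the Npy gate and 66.8% of the Tac1 gate. The Slc6a9 gate took in 48.1% of the Gjd2 gate and 28.5% of the Slc17a8 gate. Libraries 5 and 6 shared 312 cell barcodes, at a median UMI ratio of 6.77, and libraries 2 and 3 shared 59, at a ratio of 26.6, while the other 43 pairs shared 3 to 32. Without the 371 shallower copies of the barcodes of those 2 pairs (1.14% of cells), no call of the 6 genes changed in any of the 6 comparisons. No removal of doublets is stated in the sources used here, and none was done.

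The sequences upstream of the 3 peptide genes are shown because the results turn on how differently these genes were placed among the cells. They are the 250 bases before each RefSeq start (GRCm38.p6), 5′ to 3′, with capitals on TGACG, the core of the cyclic AMP response element TGACGTCA, searched on both strands. Vip lies at chr10:5639218-5647617 on the plus strand, with its upstream window at chr10:5638968-5639217. Sct lies at chr7:141278330-141279133 on the minus strand (window chr7:141279134-141279383), and Adcyap1 at chr17:93199017-93206537 on the plus strand (window chr17:93198767-93199016).
Vip: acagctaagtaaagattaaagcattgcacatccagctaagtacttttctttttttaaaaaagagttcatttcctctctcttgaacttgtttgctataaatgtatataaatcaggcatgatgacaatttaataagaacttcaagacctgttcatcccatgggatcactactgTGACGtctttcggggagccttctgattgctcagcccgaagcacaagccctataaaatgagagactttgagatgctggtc
Sct: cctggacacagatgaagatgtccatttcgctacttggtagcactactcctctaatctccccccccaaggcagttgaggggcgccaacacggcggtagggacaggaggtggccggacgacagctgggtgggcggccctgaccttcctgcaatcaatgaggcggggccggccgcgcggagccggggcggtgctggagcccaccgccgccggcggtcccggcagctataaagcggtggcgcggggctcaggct
Adcyap1: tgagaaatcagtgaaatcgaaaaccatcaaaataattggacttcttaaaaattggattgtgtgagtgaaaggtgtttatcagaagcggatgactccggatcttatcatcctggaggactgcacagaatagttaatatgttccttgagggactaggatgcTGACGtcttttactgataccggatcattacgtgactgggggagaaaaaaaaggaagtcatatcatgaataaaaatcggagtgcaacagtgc
The core stood once in the Vip window, starting 79 bases before the start, and once in the Adcyap1 window, 91 bases before it, and was not in the Sct window. Adcyap1 has another listed start (window chr17:93198918-93199167, not shown), and the core lies 242 bases before that one. Of 32851 windows of this length, 17.8% held the core and 1.55% the full element, which none of the windows of the 6 genes held. Such a match describes the letters and not a site in use.

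**Figure D1:**
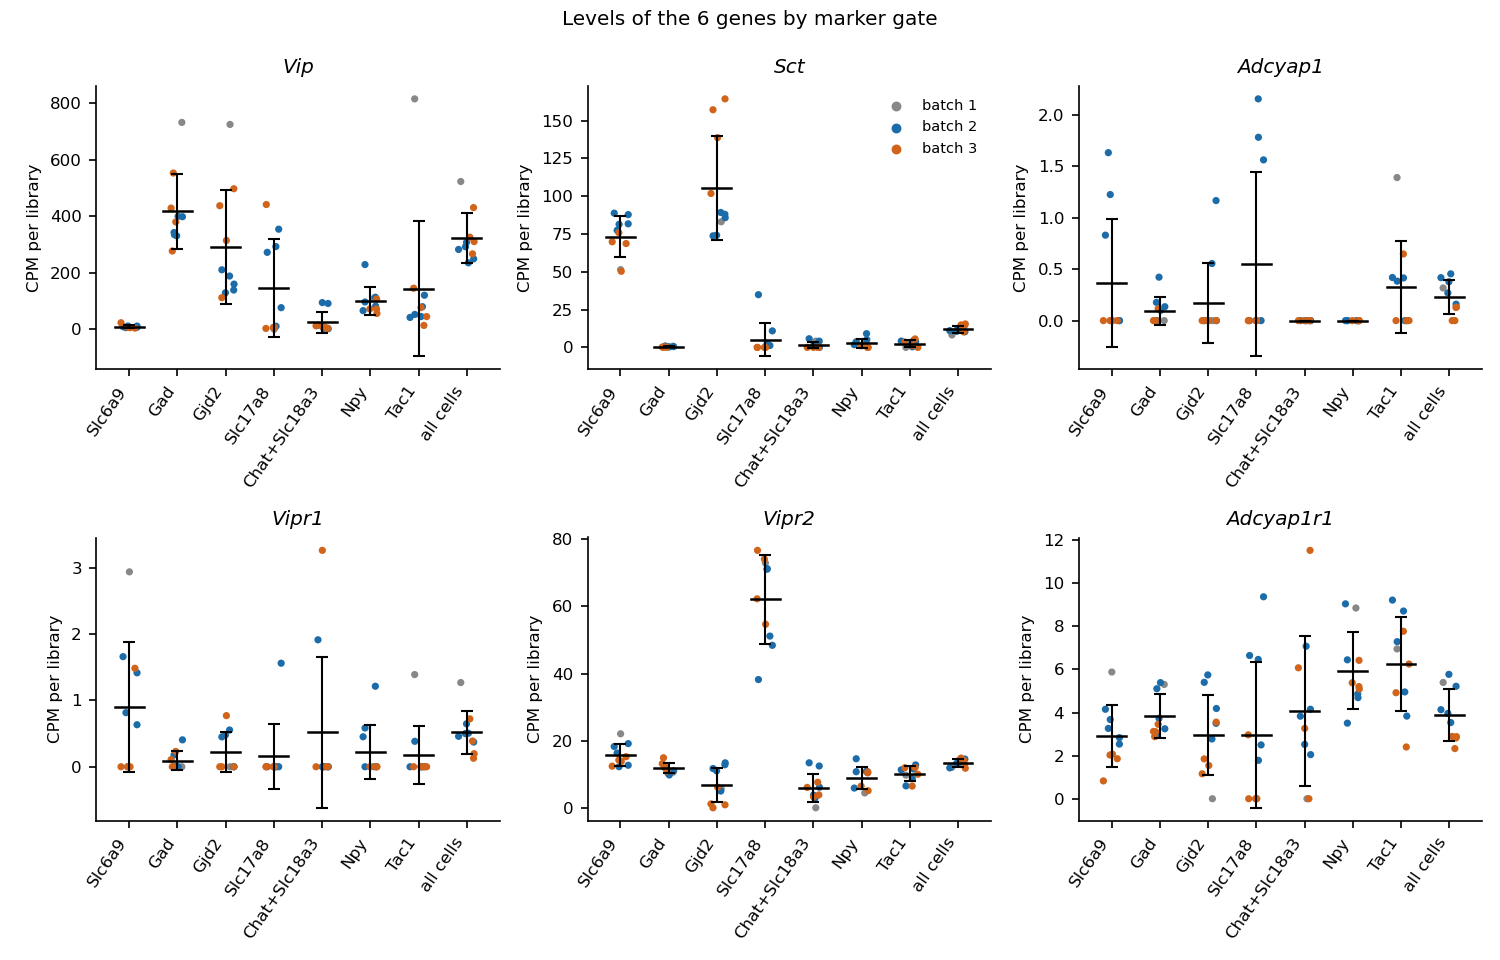
Levels of the 6 genes in CPM (y axis, linear) in each marker gate and in all cells (x axis); points are libraries coloured by batch, lines and bars the mean ± SD (n = 10). Sct stood at 50.3 to 88.8 CPM in the Slc6a9 gate against 0 to 0.976 CPM in the Gad gate, while Vipr2 was highest in the Slc17a8 gate, at 38.2 to 76.7 CPM.

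Vip, the precursor of vasoactive intestinal peptide, was concentrated in few cells of the Gad class, and Sct, the precursor of secretin, in the Slc6a9 class and nearly absent from the Gad class. Vipr2 was higher by a small margin in the Slc6a9 gate, and Adcyap1r1 was lower there by a margin near the threshold. These 4 genes could be tested, and 2 were higher and 2 lower in the Slc6a9 gate than in the Gad gate (edgeR quasi-likelihood test, Benjamini-Hochberg adjusted p under 0.05). Of all 11250 genes tested, 61.2% were called in this comparison, 32.1% higher and 29.1% lower. Adcyap1 and Vipr1 did not pass the filter on low counts in any of the 6 comparisons.

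Vip had 4.08, 7.16 and 23.1 CPM (lowest, median and highest library) in the Slc6a9 gate, against 277, 389 and 732 CPM in the Gad gate. No library's Slc6a9 value reached any Gad value. This made a log2 change of -5.40 ± 0.11 (SE; edgeR adjusted p = 5.22e-20, lower in 10 of 10 libraries). Most of it lay in few cells: without the cells of at least 10 Vip UMIs, which held 95.5% of the Vip of the Gad gate, Slc6a9-gated cells averaged 7.32 ± 2.63 CPM and Gad-gated cells 17.9 ± 3.66 CPM of Vip, and the log2 change was -1.30. That value has no test, since Vip chose the cells left out. The Slc6a9 level was 1.25 to 5.37% of the level in all cells of the same library, median 2.41%. Of the Slc6a9-gated cells, 2.39% (95% exact interval 1.97 to 2.88%, median depth 3664 UMIs) held a Vip UMI, against 8.57% (8.15 to 9.01%, median 5411 UMIs) of the Gad-gated cells. After each cell had been thinned to 2000 UMIs, which kept 3713 cells of the Slc6a9 gate and 14321 of the Gad gate, the shares were 1.08% in the Slc6a9 gate and 5.72% in the Gad gate. Of 60 cells with at least 10 UMIs of Müller glia markers and none of Gad1 or Gad2, 1 held a Vip UMI. These markers also summed to 905 to 1221 CPM in the Gad gate, so the 60 cells are not shown to be glia. Intervals and limits given here cover counting error only.

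Sct showed the reverse order. It had 50.3, 76.7 and 88.8 CPM in the Slc6a9 gate, against 0, 0.348 and 0.976 CPM in the Gad gate, with no overlap between libraries. The log2 change was 7.46 ± 0.15 (edgeR adjusted p = 4.57e-20, higher in 10 of 10 libraries). A Sct UMI was found in 13.9% of Slc6a9-gated cells (95% exact interval 12.9 to 15.0%), against 0.244% (0.174 to 0.332%) of Gad-gated cells, and in 9.18% against 0.0768% at 2000 UMIs per cell. All 16415 Gad-gated cells together held 41 Sct UMIs. Within batches the log2 changes were 7.27 in batch 2 and 8.34 in batch 3 for Sct, and -5.30 in batch 2 and -5.38 in batch 3 for Vip, and batch 1 held 1 library.

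Per cell, the 6 genes differed in form as well as in level. Vip reached 412 UMIs in a cell and Sct 13, while no cell held more than 2 UMIs of Adcyap1 or Vipr1. Vip was absent from 30297 cells and stood at 1 UMI in 1061, at 2 to 9 in 394 and at 10 or more in 771 (2.37%). The 771 cells with at least 10 UMIs held 94.7% of all 52375 Vip UMIs, and the 186 with at least 100 held 54.0%. Just below and just at that minimum stood 23 cells with 9 UMIs and 30 with 10. UMIs were counted at transcript ends and are not scaled by gene length, so levels are compared between cells and not between genes.

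**Figure D2:**
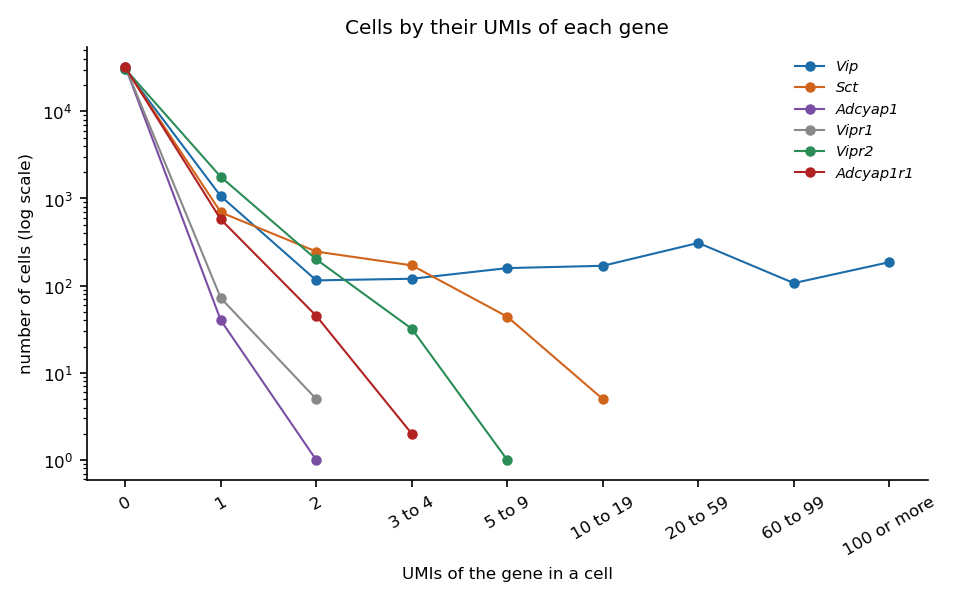
Number of cells (y axis, log scale) by their UMIs of each gene (x axis, in bins; lines join the bins of a gene, and bins with no cell have no point). Vip extended to 186 cells with 100 UMIs or more, while Sct ended with 5 cells of 10 UMIs or more and the other genes below that.

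The cells with at least 10 Vip UMIs are described without a test, since Vip chose them. Of the 771, 549 (71.2%) were in the Gad gate, 171 held UMIs of both classes, 38 had a single UMI of either class, 12 had neither and 1, with 45 Vip UMIs, was in the Slc6a9 gate. Their median depth was 5533 UMIs, and they made up 1.83 to 2.95% of the cells of a library. Gad1 was found in 94.4% of them, and Cartpt, the precursor of the CART peptide, in 91.8%, against 38.3% of other cells. Cbln4, a secreted protein of the cerebellin family, was found in 89.2% against 4.44%, and the water channel gene Aqp1 in 31.8% against 0.696%. Few of these cells held a UMI of the other 5 genes of the family. An Adcyap1r1 UMI was found in 36 cells (4.67%), against 1.85% of other cells, at pooled levels of 7.42 and 3.82 CPM. A Vipr2 UMI was found in 42 (5.45% against 6.17%) and an Sct UMI in 10 (1.30% against 3.62%). A Vipr1 UMI was found in 4 (0.519% against 0.230%) and an Adcyap1 UMI in 0 (against 0.129%). These shares are not at 1 depth. Across all 32523 cells, on ln(1 + counts per 10000), the genes most like Vip were Cbln4 (r = 0.69), Aqp1 (r = 0.38) and Plscr1 (r = 0.31). These correlations run over cells that share libraries and differ in depth, and carry no test.

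Sct was spread thinner, over 1159 cells with 2066 UMIs in all. At least 2 UMIs were found in 466 cells (1.43%), of which 293 were in the Slc6a9 gate, 162 held UMIs of both classes and 1 was in the Gad gate. Slc6a9 was found in 99.6% of the 466, Gjd2 in 96.6%, the homeobox gene Prox1 in 88.4% and the dopamine receptor gene Drd4 in 80.9%, described without a test since Sct chose the cells. The genes most like Sct across cells were Drd4 (r = 0.45), Gjd2 (r = 0.41) and Mapk12 (r = 0.39), and for the other 4 genes of the family no gene reached r = 0.2. Vip and Sct met in 55 cells, of which 3 had at least 10 Vip and 2 Sct UMIs.

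In the Gjd2 gate, Sct was far higher than in all other cells and Vipr2 lower, while Vip and Adcyap1r1 did not pass the test. This made 1 of the 4 tested genes higher and 1 lower, where 48.4% of 11647 genes were called, 23.9% higher and 24.5% lower. Sct had 73.8, 88.7 and 164 CPM in the Gjd2 gate, against 1.39, 3.60 and 4.74 CPM in all other cells. Every library's Gjd2 value lay above every other value. The log2 change was 4.90 ± 0.13 (edgeR adjusted p = 5.92e-17, higher in 10 of 10 libraries), and it was 4.53 within batch 2 and 5.39 within batch 3. Of the gated cells, 39.9% held an Sct UMI (37.7 to 42.1%, median depth 5724 UMIs), against 1.26% (1.14 to 1.39%, median 4052 UMIs) of the others, and 18.6% against 0.689% at 2000 UMIs per cell.

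The Gjd2 gate contained both transmitter classes, 934 cells of the Slc6a9 gate and 222 of the Gad gate, and Sct differed between them. Slc6a9-gated cells with at least 3 Gjd2 UMIs had 158, 191 and 234 CPM of Sct (mean 197 ± 29.5, SD, n = 10 libraries), and those with 1 or 2 Gjd2 UMIs had 134 ± 41.1 CPM (n = 9). Slc6a9-gated cells with no Gjd2 UMI, 3118 cells, had 6.51 ± 3.75 CPM, from 67 UMIs. The first of these groups lay wholly above the last, and the 2 groups with Gjd2 UMIs overlapped. Gad-gated cells with at least 3 Gjd2 UMIs had 1 Sct UMI in 222 cells, at 0.203 ± 0.641 CPM. Within Slc6a9-gated cells the log2 change of Sct with the Gjd2 gate was 3.04 (edgeR adjusted p = 1.02e-16), and within Gad-gated cells Sct did not pass the filter. Over the whole table, 1894 of the 2066 Sct UMIs (91.7%) lay in the 7140 cells (22.0%) with a Gjd2 UMI.

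**Figure D3:**
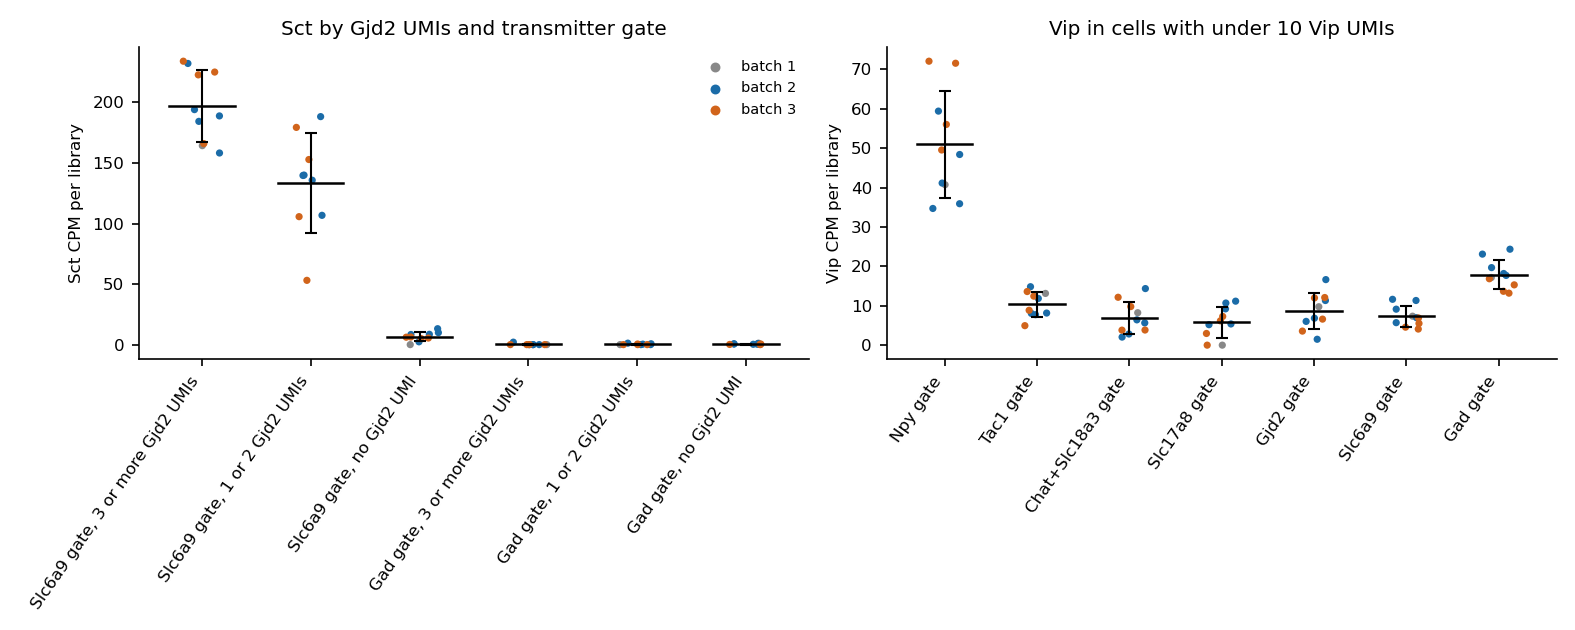
Left, Sct in CPM per library in Slc6a9-gated and Gad-gated cells by their Gjd2 UMIs; right, Vip in CPM per library in each gate over cells with under 10 Vip UMIs (points are libraries coloured by batch, lines and bars the mean ± SD). Sct averaged 197 CPM in Slc6a9-gated cells with 3 or more Gjd2 UMIs and 0.203 CPM in Gad-gated cells with as many, and Vip averaged 50.9 CPM in the Npy gate outside its high cells.

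Vip in the Gjd2 gate depended on the transmitter in the opposite sense. Cells in the Gjd2 and Slc6a9 gates had 4.96 ± 3.06 CPM, and cells in the Gjd2 and Gad gates 918 ± 579 CPM (306 to 2077). Over the whole gate Vip stood at 112, 200 and 725 CPM, against 244, 313 and 505 CPM in all other cells, with overlap. The log2 change of -0.31 ± 0.16 did not pass the test (edgeR adjusted p = 0.114, lower in 7 of 10 libraries). Its direction turned among Gad-gated cells, at 1.10 (adjusted p = 1.45e-05), and within batch 3, at 0.07 (adjusted p = 0.747). It also turned with the whole Gjd2 gate set against Slc6a9-gated cells outside it, at 4.61 (adjusted p = 1.86e-13). The Vip of the gate's Gad-gated cells enters that value. Cells in the Gjd2 and Slc6a9 gates had 4.96 CPM, against 9.18 ± 5.48 CPM in the whole Slc6a9 gate. The log2 change over the whole gate was called lower with the Gjd2 minimum doubled (-2.10, adjusted p = 7.84e-05), within batch 2 (-0.74, adjusted p = 4.39e-14) and with thinned cells (-0.40, adjusted p = 0.00681). It was also called lower without library 9 (-0.43, adjusted p = 0.0205), without library 1 (-0.40, adjusted p = 0.0429) and with no filter on low counts (-0.33, adjusted p = 0.0461). Of the gate's Vip UMIs, 96.4% came from 42 cells with at least 10. The cells in the Gjd2 and Gad gates had a median of 9992.5 UMIs, against 5724 in the whole Gjd2 gate, and the part of doublets was not tested.

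Vipr2 in the Gjd2 gate had 0, 5.92 and 13.4 CPM, against 12.5, 13.5 and 15.5 CPM in all other cells. The ranges overlapped by the highest gated libraries, and 9 of 10 libraries were lower. The log2 change was -0.73 ± 0.23 (edgeR adjusted p = 0.0123), -0.27 within batch 2 (adjusted p = 0.154) and -2.56 within batch 3 (adjusted p = 1.95e-06). In cells of the Gjd2 and Slc6a9 gates Vipr2 averaged 2.92 ± 2.61 CPM. Adcyap1r1 averaged 2.97 ± 1.86 CPM in the Gjd2 gate and 3.97 ± 1.27 CPM in all other cells, a log2 change of -0.18 ± 0.21 (edgeR adjusted p = 0.524).

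The Slc17a8 gate stood out by Vipr2, the VPAC2 receptor gene (chr12:116077726-116146261, plus strand). Vipr2 was higher in it and Vip lower, 1 of the 4 tested genes in each direction, where 25.1% of 11459 genes were called, 10.6% higher and 14.5% lower. Vipr2 had 38.2, 66.7 and 76.7 CPM in the Slc17a8 gate, against 10.6, 12.1 and 13.8 CPM in all other cells. The groups did not overlap. Vipr2 changed by a log2 of 2.27 ± 0.13 (edgeR adjusted p = 1.01e-15, higher in 10 of 10 libraries), 2.16 within batch 2 and 2.39 within batch 3. Of the gated cells, 29.0% held a Vipr2 UMI (25.6 to 32.6%, median depth 4841 UMIs), against 5.68% (5.42 to 5.94%, median 4191 UMIs) of the others, and 13.2% against 2.40% at 2000 UMIs per cell.

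Markers of bipolar cells, which the sort was set to remove, stood higher in the same gate. Otx2, Trpm1, Grm6 and Cabp5 summed to 109 CPM in the Slc17a8 gate (12.3 to 194 over libraries), against 37.0 CPM in all cells (20.7 to 49.1), and 0 of the 4 were at 0. In the 545 gated cells with no UMI of any of them Vipr2 averaged 61.2 ± 11.97 CPM, and in the 121 gated cells with at least 1 it averaged 71.7 ± 31.1 CPM (n = 6 libraries). Outside the gate, 230 cells with at least 5 such UMIs had 24.04 ± 11.5 CPM of Vipr2 (n = 5). Of 7 cells rich in bipolar markers and free of UMIs of both transmitter classes, 4 held a Vipr2 UMI. An antisense gene, Gm20658 (chr12:116102769-116138648, minus strand), overlaps Vipr2, and whether the counting used strand is not given in the sources used here.

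Within the Slc17a8 gate, Vipr2 was found in cells with and without UMIs of the transmitter genes. It averaged 78.6 ± 38.5 CPM in the 190 cells also in the Slc6a9 gate, 43.7 CPM in the 228 cells with UMIs of both classes, and 138 ± 47.8 CPM in 83 cells with neither (n = 4 libraries). Set against the Slc6a9-gated cells outside it, the Slc17a8 gate had a log2 change of 2.33 for Vipr2 (edgeR adjusted p = 4.51e-12). Vip in the Slc17a8 gate had 0, 43.6 and 442 CPM, against 234, 300 and 536 CPM in all other cells. Values stood at 272 to 442 CPM in 4 libraries and at 0 to 76.5 CPM in the other 6, and 12 cells with at least 10 Vip UMIs carried 96.4% of the gate's Vip. The log2 change of -0.96 ± 0.28 passed the test (edgeR adjusted p = 0.00891, lower in 7 of 10 libraries) and lost it within batch 2 (-0.49, adjusted p = 0.0584) and without the library block (-0.97, adjusted p = 0.0737). Sct did not pass, at -0.79 ± 0.40 (edgeR adjusted p = 0.166). Library 2 alone held 21 of the gate's 31 Sct UMIs, 13 of them in 1 cell, and without it the log2 change was -2.17 (adjusted p = 0.00013). Adcyap1r1 was at 2.97 ± 3.39 CPM in the gate and 3.91 ± 1.23 CPM in all other cells.

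The call of Vipr2 between the transmitter gates was lost in several settings, among them the fit without cells holding a Slc17a8 UMI. Vipr2 had 12.2, 14.7 and 22.0 CPM in the Slc6a9 gate, against 9.78, 11.5 and 14.9 CPM in the Gad gate, with overlap. The log2 change was 0.37 ± 0.11 (edgeR adjusted p = 0.00738, higher in 8 of 10 libraries), and without cells holding a Slc17a8 UMI it was -0.02 (adjusted p = 0.911). It was 0.50 within batch 2 and 0.14 within batch 3 (adjusted p = 0.458), and it lost the test with the gate minimums doubled (0.07, adjusted p = 0.779) and with thinned cells (0.16, adjusted p = 0.448). A Vipr2 UMI was found in 4.78% of Slc6a9-gated cells against 6.13% of Gad-gated cells, and in 2.59% against 2.42% at 2000 UMIs per cell, so no order is read from the shares.

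In the Chat and Slc18a3 gate, Vip, Sct and Vipr2 were lower than in all other cells, 3 of 4 tested genes, where 34.7% of 11416 genes were called, 16.8% higher and 18% lower. Vip had 2.05, 9.01 and 94.5 CPM in the gate, against 241, 310 and 544 CPM in all other cells, with no overlap. Its log2 change was -3.18 ± 0.29 (edgeR adjusted p = 4.64e-10, lower in 10 of 10 libraries), -2.65 within batch 2 and -5.59 within batch 3. Sct had 0, 0.630 and 5.74 CPM in the gate, against 8.42, 11.6 and 15.8 CPM in all other cells, again apart. Its log2 change was -2.22 ± 0.36 (edgeR adjusted p = 1.59e-05) and -1.88 within batch 2, and the gated cells of the 4 libraries of batch 3 held 0 Sct UMIs. Vipr2 averaged 5.94 ± 4.24 CPM in the gate and 13.5 ± 1.13 CPM in all other cells, a log2 change of -0.84 ± 0.26 (edgeR adjusted p = 0.0122) that lost the test with thinned cells (adjusted p = 0.134), within batch 2 (adjusted p = 0.0768) and within batch 3 (adjusted p = 0.125). Adcyap1r1 stood at 4.05 ± 3.48 CPM in the gate and 3.90 ± 1.28 CPM in all other cells (0.06 ± 0.37, edgeR adjusted p = 0.929). Against other Gad-gated cells, Vip was lower (log2 change -3.59, adjusted p = 4.27e-11), Vipr2 did not pass (-0.64, adjusted p = 0.0656), and Sct did not pass the filter on low counts.

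**Figure D4:**
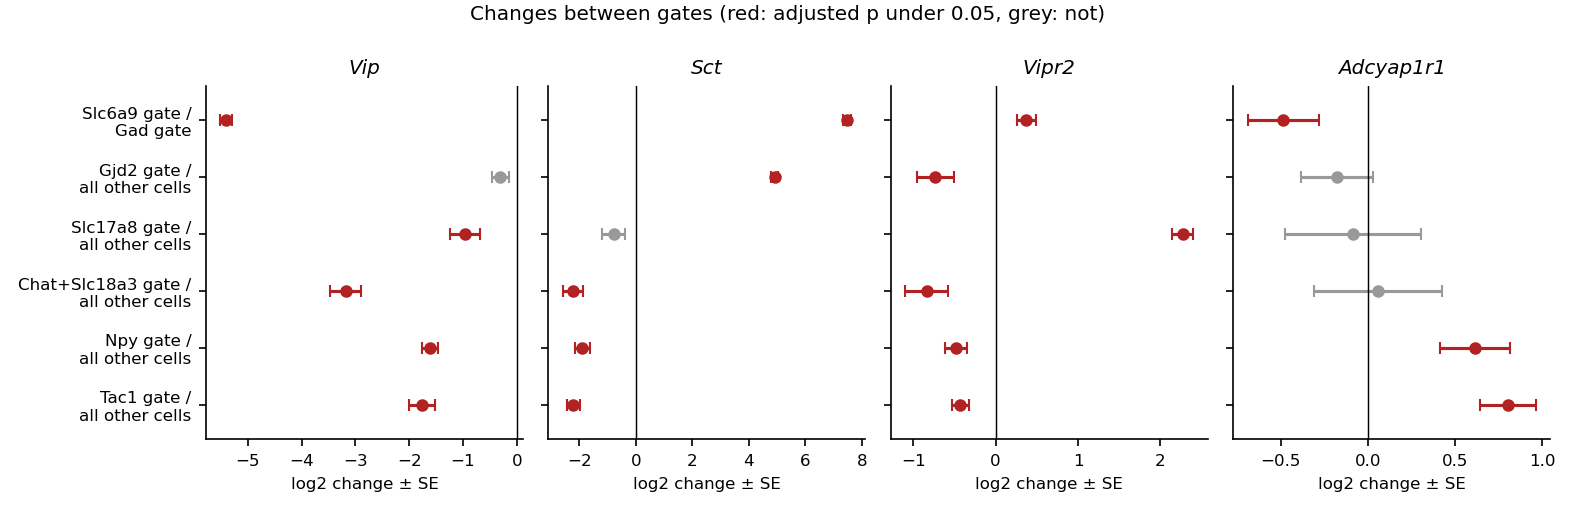
Log2 changes ± SE (x axis) of the 4 genes that passed the filter on low counts, in each of the 6 comparisons (y axis), from edgeR over 10 libraries; red points have an adjusted p under 0.05 over all genes, grey points do not. Sct ran from 7.46 in the Slc6a9 gate against the Gad gate to -2.22 in the Chat and Slc18a3 gate, and each panel has its own scale.

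In the Npy gate and in the Tac1 gate Adcyap1r1, the PAC1 receptor gene (chr6:55451978-55501451, plus strand), was higher than in all other cells, and Vip, Sct and Vipr2 were lower. In each gate 1 of the 4 tested genes was higher and 3 were lower. In the Npy gate 28.7% of 11660 genes were called, 15.4% higher and 13.3% lower. In the Tac1 gate 40.6% of 11776 genes were called, 21.7% higher and 18.9% lower. The 2 comparisons share most of their other cells, and 464 cells lie in both gates.

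Adcyap1r1 had 2.40, 6.60 and 9.22 CPM in the Tac1 gate, against 2.32, 3.62 and 5.26 CPM in all other cells. The ranges overlapped, and every library was higher in the gate than outside it. Adcyap1r1 changed by a log2 of 0.80 ± 0.16 (edgeR adjusted p = 0.000222, higher in 10 of 10 libraries), 0.68 within batch 2, 1.17 within batch 3 and 0.90 against other Gad-gated cells. Adcyap1r1 had 3.51, 5.29 and 9.04 CPM in the Npy gate, against 2.16, 3.58 and 5.86 CPM in all other cells. There the log2 change was 0.61 ± 0.20 (edgeR adjusted p = 0.0208, higher in 8 of 10 libraries), and it lost the test without library 6 (adjusted p = 0.140), within batch 2 (0.45, adjusted p = 0.192) and within batch 3 (1.12, adjusted p = 0.0742). Within the Npy gate, the 1271 cells outside the Chat and Slc18a3 gate had 7.20 ± 2.26 CPM, and the 277 cells inside it 0.519 ± 1.03 CPM (n = 9). A UMI of Adcyap1r1 was found in 4.60% of Tac1-gated cells (median depth 7850 UMIs) against 1.71% of the others (median 4032.5 UMIs), and in 0.933% against 0.660% at 2000 UMIs per cell. With thinned cells Adcyap1r1 did not pass the filter in the Tac1 gate, and no order is read from these shares. Of the 60 cells rich in Müller glia markers, which are not shown to be glia, 5 held an Adcyap1r1 UMI.

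Vip had 13.6, 64.8 and 816 CPM in the Tac1 gate, against 251, 328 and 486 CPM in all other cells, and library 1, at 816 CPM, was the single one that was higher. Vip changed by a log2 of -1.76 ± 0.25 (edgeR adjusted p = 2.70e-06), -2.22 without library 1, -2.15 within batch 2 and -2.36 within batch 3. Sct had 0, 2.91 and 5.60 CPM in the Tac1 gate, against 9.31, 12.3 and 17.1 CPM in all other cells, with no overlap (log2 change -2.21 ± 0.23, edgeR adjusted p = 1.31e-08, -1.97 within batch 2 and -2.64 within batch 3). Vipr2 averaged 10.1 ± 2.26 CPM in the Tac1 gate and 13.7 ± 1.11 CPM in all other cells (-0.43 ± 0.10, edgeR adjusted p = 0.00164). That call was lost within batch 3 (-0.45, adjusted p = 0.0775), with thinned cells (-0.15, adjusted p = 0.665) and against other Gad-gated cells (-0.27, adjusted p = 0.0689), where Sct did not pass the filter.

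In the Npy gate the order for Vip differed with and without the cells that held the most Vip. Over the whole gate Vip had 56.0, 89.3 and 229 CPM, against 236, 318 and 555 CPM in all other cells, with no overlap (log2 change -1.61 ± 0.15, edgeR adjusted p = 2.00e-09, -1.33 within batch 2 and -2.15 within batch 3). Without the 771 cells that held at least 10 Vip UMIs, the change turned to 1.81, given with no test since Vip chose the cells left out. In the same way it became -0.98 in the Gjd2 gate, -1.37 in the Slc17a8 gate, -1.21 in the Chat and Slc18a3 gate and -0.80 in the Tac1 gate. In the cells left, Vip had 34.7, 49.0 and 72.1 CPM in the Npy gate, above its 13.2, 17.4 and 24.3 CPM in the Gad gate and above each of the other gates, which averaged 5.81 to 10.4 CPM. A Vip UMI was found in 14.3% of the Npy-gated cells left (median depth 7750.5 UMIs), against 5.41% in the Gad gate (5410 UMIs) and 2.37% in the Slc6a9 gate (3664 UMIs), and with the high cells kept and cells thinned to 2000 UMIs the shares were 8.13% in the Npy, 5.72% in the Gad and 1.08% in the Slc6a9 gate. High cells held 55.3% of the Vip UMIs of the Npy gate, against 95.5% in the Gad gate. In Npy-gated cells outside the Tac1 and the Chat and Slc18a3 gates, Vip averaged 139 ± 44.7 CPM over all cells. Sct averaged 2.60 ± 2.86 CPM in the Npy gate and 12.7 ± 2.48 CPM in all other cells (-1.89 ± 0.26, edgeR adjusted p = 1.62e-06, and -1.40 within batch 2), and the 4 libraries of batch 3 held 1 Sct UMI in the gate. Most Npy-gated cells were also in the Gad gate, where Sct averaged 0.413 ± 0.299 CPM. Against other Gad-gated cells Sct did not pass the filter. The part of transmitter class in the lower Sct here, and in the Tac1 and the Chat and Slc18a3 gates, was not tested. Vipr2 averaged 8.99 ± 3.30 CPM in the Npy gate and 13.6 ± 1.10 CPM in all other cells (-0.48 ± 0.13, edgeR adjusted p = 0.00736), a call lost within batch 2 (adjusted p = 0.0741), within batch 3 (adjusted p = 0.0948) and against other Gad-gated cells (-0.30, adjusted p = 0.151).

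Between the transmitter gates, Adcyap1r1 had 0.827, 2.68 and 5.88 CPM in the Slc6a9 gate, against 2.88, 3.35 and 5.39 CPM in the Gad gate, with wide overlap. The log2 change of -0.49 ± 0.20 (edgeR adjusted p = 0.0488, lower in 8 of 10 libraries) lost the test in 7 of the 10 fits that left out a library, within batch 2 and in DESeq2 (adjusted p = 0.131).

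Placed in order by mean level over the 7 gates, Vip ran from the Gad gate (418 ± 133 CPM) through Gjd2 (291 ± 202), Slc17a8 (147 ± 174), Tac1 (144 ± 239), Npy (100 ± 49.4) and Chat with Slc18a3 (24.3 ± 36.4) to Slc6a9 (9.18 ± 5.48). No neighbours in that order were apart by more than their SDs, and as a mean of per-cell values Slc17a8 stood at 79.6 CPM, after Tac1 and Npy, and Chat with Slc18a3 at 15.5 CPM. Sct ran from Gjd2 (106 ± 34.5 CPM) and Slc6a9 (73.4 ± 13.6), which overlapped, to Slc17a8 (5.10 ± 11.0), Npy (2.60 ± 2.86), Tac1 (2.58 ± 2.06), Chat with Slc18a3 (1.67 ± 2.18) and Gad (0.413 ± 0.299). The step from Slc6a9 to Slc17a8 was the one that exceeded the ranges over libraries. Vipr2 ran from Slc17a8 (62.1 ± 13.2 CPM), clear of all others, to Slc6a9 (15.6 ± 3.28), Gad (11.8 ± 1.54), Tac1 (10.1 ± 2.26), Npy (8.99 ± 3.30), Gjd2 (6.78 ± 5.16) and Chat with Slc18a3 (5.94 ± 4.24), which overlapped from neighbour to neighbour. Adcyap1r1 ran from Tac1 (6.23 ± 2.18 CPM), Npy (5.95 ± 1.79) and Chat with Slc18a3 (4.05 ± 3.48) to Gad (3.83 ± 1.02), Slc17a8 (2.97 ± 3.39), Gjd2 (2.97 ± 1.86) and Slc6a9 (2.91 ± 1.42), and all neighbours overlapped. As a mean of per-cell values Adcyap1r1 stood at 7.02 CPM in the Chat and Slc18a3 gate, above all others, and at 1.86 CPM in the Gjd2 gate.

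A wider panel of marker gates placed the receptors further, as a description. Adcyap1r1 averaged 13.5 ± 3.86 CPM (7.99 to 19.96) in cells with at least 3 UMIs of Ppp1r17, a gene known from amacrine cells low in both transmitters, against 3.89 ± 1.22 CPM in all cells, and the ranges over libraries did not meet. Within the Slc6a9 gate, 34 of its 42 Adcyap1r1 UMIs lay in the 1348 cells with a Ppp1r17 UMI, and cells without one averaged 1.07 ± 1.18 CPM. In cells with at least 5 UMIs of Tac2, the precursor of neurokinin B, Adcyap1r1 averaged 11.8 ± 4.01 CPM. In the 65 cells with at least 5 UMIs of Ghrh, 18 held an Adcyap1r1 UMI, a pooled level of 34.6 CPM. Vipr2 had its next highest panel level after the Slc17a8 gate in cells with at least 3 UMIs of the homeobox gene Lhx2, at 33.6 ± 15.5 CPM. Lhx2 itself had a pooled level of 260 CPM in the Slc17a8 gate and 13.2 CPM outside it. The Lhx2 and Slc17a8 gates may therefore share cells, and Vipr2 is not given here for Lhx2 cells outside the Slc17a8 gate. Sct averaged 73.2 ± 26.0 CPM with at least 5 UMIs of the calcium-binding protein gene Calb1, and 2.42 ± 3.27 CPM in the Calb1 cells with no Gjd2 UMI. In the 153 cells with at least 3 UMIs of Th, the enzyme of dopamine synthesis, all 41 Sct UMIs lay in the 94 cells with a Gjd2 UMI. Vip averaged 3724 CPM in cells with at least 20 UMIs of Cartpt, and 48.4 ± 16.9 CPM there without the cells of at least 10 Vip UMIs.

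**Figure D5:**
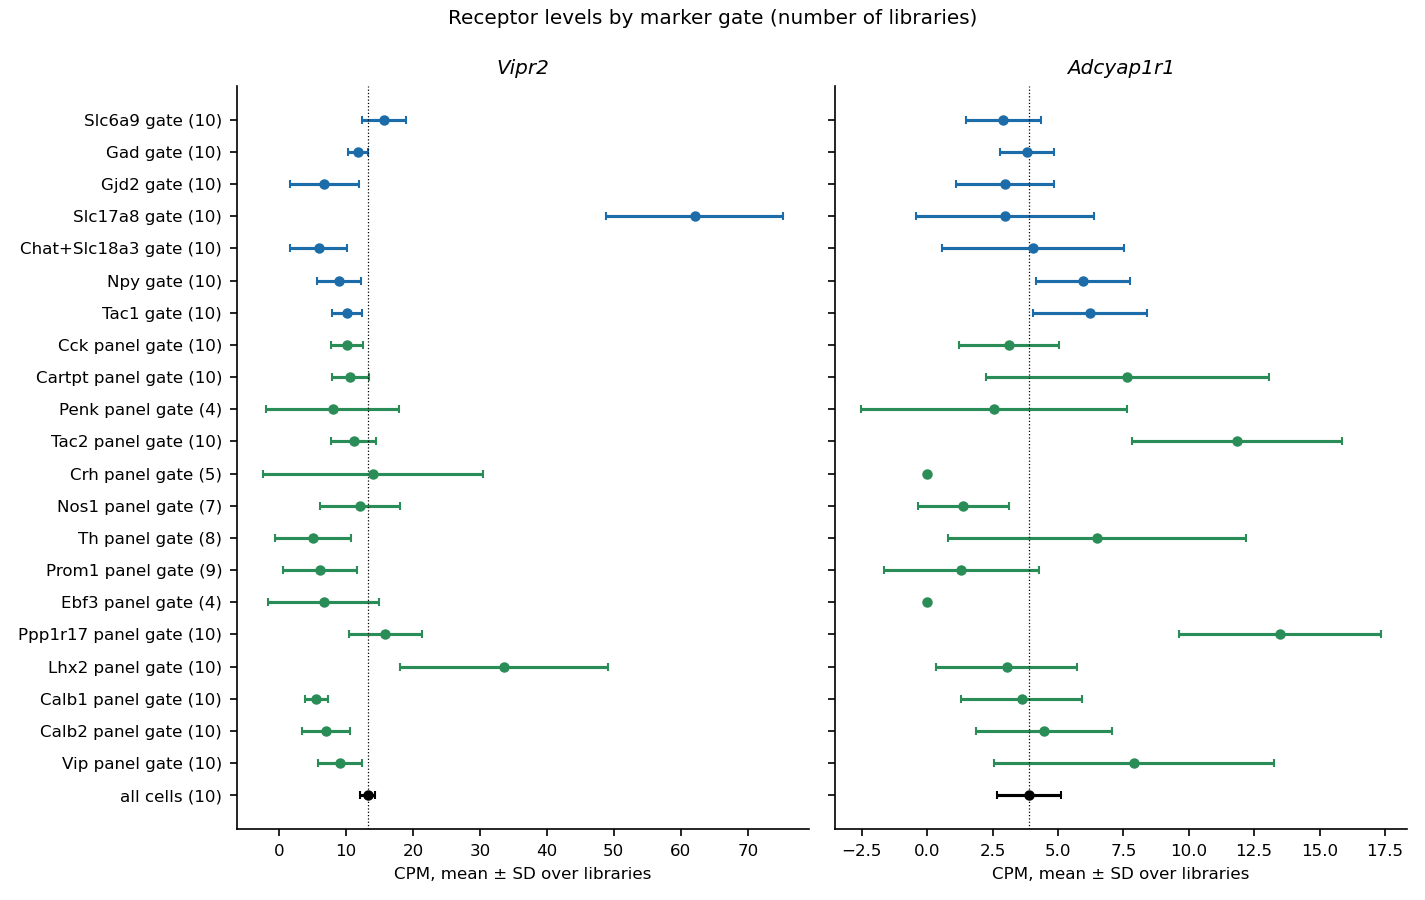
Levels of Vipr2 and Adcyap1r1 in CPM (x axis, mean ± SD over the libraries given in brackets) in the 7 gates (blue), in a wider panel of marker gates (green) and in all cells (black, dotted line). Vipr2 stood at 62.1 CPM in the Slc17a8 gate against 13.3 CPM in all cells, and Adcyap1r1 at 13.5 CPM in the Ppp1r17 gate against 3.89 CPM in all cells.

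Adcyap1, the precursor of PACAP, was close to the limit of detection. The table held 42 UMIs of it in 41 cells, 12 of them in the Gad gate, 5 in the Slc6a9 gate, 5 in the Tac1 gate, 3 in the Gjd2 gate and 3 in the Slc17a8 gate. A UMI was found in 0 of 1548 Npy-gated cells, which allows a share of cells with a UMI of up to 0.194%, and in 0 of 651 cells of the Chat and Slc18a3 gate, which allows up to 0.461%. These limits are on cells with a UMI and not on cells that express the gene. The Ppp1r17 gate held 7 of the 42 UMIs, at 1.04 ± 1.16 CPM, against 0.225 ± 0.166 CPM in all cells. Vipr1, the VPAC1 receptor gene (chr9:121642716-121672954, plus strand), had 82 UMIs in 77 cells. In Slc6a9-gated cells it stood at 0.895 ± 0.981 CPM, from 12 UMIs, and in Gad-gated cells at 0.0921 ± 0.140 CPM, from 11 UMIs, and 45 of its UMIs lay in cells with UMIs of both classes. With no filter on low counts the log2 change of Vipr1 between these gates was 2.59 ± 0.76 (edgeR adjusted p = 0.00481), which rests on those 12 and 11 UMIs.

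Sctr, the receptor gene of secretin, was not among the 6 genes but bears on Sct. It had 89 UMIs, found in 0 of 4556 Slc6a9-gated cells (a share of cells with a UMI of up to 0.0658%) and in 63 of 16415 Gad-gated cells (0.384%). A list of 12 related ligands and receptors held it together with Ghrh, Ghrhr, Gcg, Gcgr, Glp1r, Glp2r, Gip, Gipr and Ramp1 to Ramp3, and 10 were detected. In the Slc6a9 gate all 4 that could be tested were lower than in the Gad gate, with a median log2 change of -3.36 against 0.03 over all genes, of which 29.1% were lower. They were Ghrh, the growth hormone-releasing hormone gene (-4.64 ± 0.26), Glp2r, the receptor of glucagon-like peptide 2 (-3.68 ± 0.35), and Ramp3 (-3.05 ± 0.15) and Ramp1 (-2.97 ± 0.26), partners of receptors of this class. In the Tac1 gate 2 of 5 were higher and 1 lower (median 0.34 against 0.00, where 21.7% of all genes were higher and 18.9% lower), with Ramp1 at 32.1 ± 6.61 CPM in the gate and 8.82 CPM in all other cells (1.80 ± 0.11, edgeR adjusted p = 1.67e-12). In the Npy gate Ramp3 was higher by 1.09 ± 0.11, and Glp2r and Ramp1 were lower, 1 and 2 of 5, where 15.4% of all genes were higher and 13.3% lower. In the Gjd2 gate 4 of 5 were lower (24.5% of all genes), in the Slc17a8 gate 2 of 5 (14.5% of all genes) and in the Chat and Slc18a3 gate 4 of 5 (18% of all genes), and none was higher in these 3.

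Of 29 genes of stimulatory G protein and cyclic AMP signalling, 26 could be tested between the Slc6a9 and Gad gates, with 9 higher, 12 lower and 5 not called (median -0.08 against 0.03 over all genes, of which 32.1% were higher and 29.1% lower). Of its 8 adenylyl cyclases, which make cyclic AMP, 7 could be tested, with 3 higher, 3 lower and 1 not called. Those named for the size of their change were Adcy5, higher by 1.29 ± 0.08, and Adcy2, which was lower (-1.99 ± 0.12). Of its 7 phosphodiesterases, which break it down, 6 could be tested, with 4 higher and 2 lower, among them Pde1a at 2.57 ± 0.15 and Pde4b at -1.79 ± 0.06. Adcy5 was also higher in the Gjd2 gate, at 51.6 ± 6.64 CPM against 15.3 CPM in all other cells (1.79 ± 0.07), where 7 of 26 were higher and 9 lower (23.9% and 24.5% of all genes). In the Slc17a8 gate, which carried the most Vipr2, 3 of 26 were higher and 8 lower (10.6% and 14.5% of all genes), and Pde1c had 263 ± 31.8 CPM in the gate and 38.1 CPM in all other cells (2.73 ± 0.08, edgeR adjusted p = 1.13e-22). In the Chat and Slc18a3 gate 5 of 27 were higher and 12 lower (16.8% and 18% of all genes), and Rapgef3, the cyclic AMP-activated exchange factor Epac1, had 20.5 ± 5.76 CPM in the gate and 0.673 CPM in all other cells (4.85 ± 0.28). The Npy gate had 7 higher and 6 lower of 26 (15.4% and 13.3% of all genes), and the Tac1 gate 9 higher and 7 lower of 26 (21.7% and 18.9%).

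Of 15 genes of peptide processing and dense-core vesicles, 14 could be tested between the Slc6a9 and Gad gates, with 5 higher and 7 lower (median -0.06 against 0.03 over all genes, of which 32.1% were higher and 29.1% lower). Pcsk1, the prohormone convertase, had 0.685 ± 0.528 CPM in Slc6a9-gated cells and 11.4 CPM in Gad-gated cells (-3.81 ± 0.23, edgeR adjusted p = 5.05e-12). The granins Scg2 (-1.35 ± 0.05), Vgf (-1.23 ± 0.07) and Chgb (-0.996 ± 0.035) were lower as well. In the Gjd2 gate, where Sct was highest, 5 of 15 were higher and 7 lower (23.9% and 24.5% of all genes), with Pcsk1 at -1.35 ± 0.17. The Chat and Slc18a3 gate had 6 of 15 higher and 7 lower (16.8% and 18% of all genes), with Scg2 at 2459 ± 556 CPM in the gate and 631 CPM in all other cells (2.04 ± 0.09) and Pcsk1 at -2.11 ± 0.39. The Tac1 gate had 7 higher and 7 lower of 15 (21.7% and 18.9% of all genes), with Cadps2, a factor of dense-core vesicle release, at 1.64 ± 0.13 and Pcsk1 at 0.83 ± 0.10. The Npy gate had 5 higher and 6 lower of 15 (15.4% and 13.3% of all genes), and the Slc17a8 gate 4 higher and 4 lower of 15 (10.6% and 14.5%).

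Some levels also differed between batches, which the labels give without saying what they are. Between the 4 libraries of batch 3 and the 5 of batch 2, Adcyap1r1 over all cells differed, at 2.73 ± 0.27 CPM in batch 3 and 4.52 ± 0.93 CPM in batch 2 (exact permutation test, two-sided p = 0.0159). Adcyap1 averaged 0.0647 ± 0.0748 CPM in batch 3 and 0.336 ± 0.120 CPM in batch 2 (exact p = 0.0159). The other 4 genes over all cells did not pass this test: Vip averaged 334 ± 69.4 CPM in batch 3 and 273 ± 30.3 CPM in batch 2 (exact p = 0.111), Sct 13.8 ± 2.39 CPM in batch 3 and 11.2 ± 0.864 CPM in batch 2 (exact p = 0.0952), and Vipr1 and Vipr2 had exact p-values of 0.302 and 0.984. In the Slc6a9 gate, where the order was the reverse of that over all cells, Sct averaged 66.2 ± 11.0 CPM in batch 3 and 83.5 ± 4.76 CPM in batch 2, and the ranges did not overlap (exact p = 0.0159). The mix of cells differed too: this gate held 21.2 to 23.2% of the cells of batch 3 libraries and 8.13 to 11.3% in batch 2. Among Slc6a9-gated cells with at least 3 Gjd2 UMIs, Sct stood at 166 to 234 CPM in batch 3 and 158 to 232 CPM in batch 2. The part of the cell mix was not tested. In the Slc6a9 gate Adcyap1r1 averaged 1.70 ± 0.586 CPM in batch 3 and 3.29 ± 0.645 CPM in batch 2 (exact p = 0.0159), while in the Gad gate its 3.14 ± 0.236 CPM in batch 3 and 4.08 ± 1.11 CPM in batch 2 did not pass (exact p = 0.143). Cells with at least 10 Vip UMIs made up 2.01% ± 0.23 of batch 3 libraries and 2.54% ± 0.17 of batch 2 libraries (exact p = 0.0317), an order opposite to that of the Vip level. Within the Gad gate their share was 3.10% ± 0.15 in batch 3 and 3.4% ± 0.22 in batch 2 and did not pass (exact p = 0.0635). Genes listed as marks of Müller glia summed to 993 ± 15.3 CPM in batch 3 and 903 ± 48.3 CPM in batch 2. They were also found in the Gad gate, so these sums do not measure glia alone. Their part in the values above was not tested. With 4 against 5 libraries, 0.0159 is the smallest two-sided p that this test can give, and these p-values are not adjusted for the 6 genes tested in each of 3 sets of cells (all cells and both transmitter gates).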

How the data were processed

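The authors deposited 1 table of UMI counts per gene and cell, for 10 libraries, with library and barcode in each cell's name. Cell Ranger 2.1.0 and mm10 are named in the submitters' processing notes, and the sources used here state no filter on cells or doublets. From the deposited counts, UMIs were summed per library and gate, for libraries with at least 10 cells in both sums. Gates were tested with edgeR 4.0.16 in R 4.3.3 (quasi-likelihood test, TMM, filterByExpr, library as block because both sums of a library come from 1 suspension, Benjamini-Hochberg over all genes tested, threshold 0.05). The procedure was run on simulated counts with 200 changed genes and 1 fixed dispersion. In the data 2880 to 6887 genes were called per comparison, so that run does not test the procedure under such broad change. DESeq2 1.42.0, other scalings, filters, gate minimums, depths, batches and libraries left out were alternatives. Cells were thinned to 2000 UMIs for shares, whose intervals are exact at the 95% level, and a count of 0 allows 3 counts. Exact permutation tests used scipy 1.17.1. The 6 genes were always named, with at most 4 called genes of each of 3 pathway lists per comparison, by size of change, and up to 3 genes most like each (r of at least 0.2, in at least 50 cells). The panel of 20 further gates, the genes and the lists were chosen with earlier results of these data known. A gene of the bipolar marker list is not reported here and was left out of its sums. Positions are from GENCODE M21 (GRCm38).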

Additional observations from a re-analysis of the deposited data

Results flagged for a closer look

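In 46 gene and gate combinations tested over the 10 libraries, the highest or lowest library stood apart from the rest in 11. Chance gives this in about 1 in 20 groups of normally distributed values. That rate does not hold for groups of few UMIs, where a single UMI can set a library apart. The 11 of 46 are therefore not read as more than chance gives. For Vip, library 1 had 816 CPM in the Tac1 gate (587 UMIs, next highest library 145 CPM), library 5 had 229 CPM in the Npy gate (392 UMIs, next 114 CPM) and library 10 had 23.1 CPM in the Slc6a9 gate (56 UMIs, next 11.6 CPM), 45 of these 56 UMIs in 1 cell. For Sct, library 2 had 34.9 CPM in the Slc17a8 gate (21 UMIs, next 10.9 CPM).

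The other 7 rest on 1 to 8 UMIs. Adcyap1 stood at 0.422 CPM in the Gad gate of library 6 (6 UMIs), at 1.17 CPM in the Gjd2 gate of library 5 (2 UMIs) and at 1.39 CPM in the Tac1 gate of library 1 (1 UMI). Vipr1 stood at 1.56 CPM in the Slc17a8 gate of library 6 (1 UMI), at 1.21 CPM in the Npy gate of library 2 (2 UMIs), at 1.39 CPM in the Tac1 gate of library 1 (1 UMI) and at 1.27 CPM over all cells of library 1 (8 UMIs). No cause was tested for any of these.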

How the results depend on the processing

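Of the log2 changes of the 4 testable genes recomputed under alternatives, 457 kept their direction and their side of the threshold, 32 lost the threshold, 11 gained it and 14 changed sign. In every alternative that gave them a value, 10 calls held: Vip between the Slc6a9 and Gad gates (-5.93 to -1.30) and in the Chat and Slc18a3 (-5.59 to -1.21) and Tac1 gates (-2.36 to -0.80), Sct between the Slc6a9 and Gad gates (7.27 to 8.34) and in the Gjd2 (2.09 to 5.39), Chat and Slc18a3 (-1.88 nearest to 0), Npy (-1.40 nearest to 0) and Tac1 gates (-2.78 to -1.97), Vipr2 in the Slc17a8 gate (2.16 to 2.56) and Adcyap1r1 in the Tac1 gate (0.68 to 1.17). The values of Vip nearest to 0 were those without its high cells, which Vip chose, so they are no test. With thinned cells Sct in the Chat and Slc18a3 gate and Sct and Adcyap1r1 in the Tac1 gate did not pass the filter, nor did Sct against other Gad-gated cells in 3 gates, Sct between the transmitter gates without cells with a Gjd2 UMI, or Sct in the Gjd2 gate within Gad-gated cells. Signs changed for Vipr2 between the Slc6a9 and Gad gates without cells with a Slc17a8 UMI (-0.019), for Vip in the Npy gate without its high cells (1.81), and for Vip in the Gjd2 gate within batch 3 (0.071), within Gad-gated cells (1.10) and against other Slc6a9-gated cells (4.61). They also changed for Adcyap1r1, never called there, in the Slc17a8 gate within batch 2 (0.20) and without single libraries (-0.49 to 0.090), and in the Chat and Slc18a3 gate without TMM (-0.035), within batch 2 (-0.059), with the minimum doubled (-0.94) and without single libraries (-0.14 to 0.21). The cause was not tested.

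The number of the 4 genes called between the Slc6a9 and Gad gates was 4, and 2 with the gate minimum doubled, with cells thinned, without cells with a Gjd2 UMI and without cells with a Slc17a8 UMI. In the Gjd2 gate it was 2, and 1 within Slc6a9-gated and within Gad-gated cells. In the Slc17a8 gate it was 2, and 1 without the replicate block and within batch 2. In the Chat and Slc18a3 gate it was 3, and 1 with cells thinned and against other Gad-gated cells. In the Npy gate it was 4, and 2 within batch 2, within batch 3 and against other Gad-gated cells, and in the Tac1 gate 4, with 1 after thinning and 2 against other Gad-gated cells. Leaving out each library gave 3 to 4 between the Slc6a9 and Gad gates, 2 to 3 in the Gjd2 gate, 2 to 3 in the Slc17a8 gate, 3 in the Chat and Slc18a3 gate, 3 to 4 in the Npy gate and 4 in the Tac1 gate. Without the replicate block, which pairs both sums of a library, Vip in the Slc17a8 gate (adjusted p = 0.0737) and Adcyap1r1 between the Slc6a9 and Gad gates (0.0666) and in the Npy gate (0.0507, edgeR) were lost, and no other call of the 4 genes changed. As a mean of per-cell values the level of Vipr2 in the Gad gate was 14.2 CPM, beyond its SD over libraries. Within the SD but by over 1.5 times, Vip stood at 79.6 CPM in the Slc17a8 and 15.5 CPM in the Chat and Slc18a3 gate, Adcyap1r1 at 7.02 CPM in the Chat and Slc18a3 and 1.86 CPM in the Gjd2 gate, and Sct at 1.09 CPM in the Chat and Slc18a3 gate, and cells high in Sct numbered 5 at 10 UMIs, 49 at 5 and 0 at 20.

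Counts over all genes moved by more than 1.5 times with thinning, to 4383 between the Slc6a9 and Gad gates, 3484 in the Gjd2, 1496 in the Slc17a8, 1982 in the Chat and Slc18a3, 1515 in the Npy and 2143 in the Tac1 gate. They also moved within batch 3 in the Chat and Slc18a3 (1408) and Npy (1979) gates, without the block in the Npy (2109) and Tac1 (3044) gates, and in the Gjd2 gate within Slc6a9-gated (3199) and Gad-gated cells (932). The share of calls that were higher was 38.4% without TMM against 49.3% in the Gjd2 gate, 33.3% against 48.3% in the Chat and Slc18a3 gate, and 40.8% with no filter against 53.6% in the Npy gate. Without the filter the median log2 change of all genes was -0.11 in the Gjd2, -0.16 in the Slc17a8 and -0.23 in the Chat and Slc18a3 gate. The choices on Gjd2 UMIs, Slc17a8 UMIs, high Vip cells, shared barcodes and cells within a transmitter gate were made after seeing the data. Adcyap1 and Vipr1, with 42 and 82 UMIs in all, did not pass the filter on low counts, and their values rest on few UMIs.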

Other observations

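Genes beside Sct on chromosome 7 were read for the same gates, a choice made after seeing that Drd4 was the gene most like it. Drd4 was thus picked on these same cells, so its p-values in these gates do not count as a test. Drd4, the dopamine D4 receptor gene (chr7:141292006-141296464, plus strand), is the next gene on one side of Sct and had 125 ± 20.2 CPM in Slc6a9-gated cells and 5.23 ± 2.17 CPM in Gad-gated cells (log2 change 4.67 ± 0.13, edgeR adjusted p = 8.24e-18, higher in 10 of 10 libraries). In the Gjd2 gate it stood at 181 ± 54.7 CPM, against 9.84 ± 1.91 CPM in all other cells (4.16 ± 0.12, edgeR adjusted p = 1.07e-16). On the other side, Irf7, an interferon regulatory factor (chr7:141262706-141266481, minus strand), had 168 UMIs in all and did not pass the filter on low counts. It had 4.68 ± 2.12 CPM in Slc6a9-gated cells and 0.311 ± 0.196 CPM in Gad-gated cells, higher in 10 of 10 libraries (exact sign-flip permutation test over 10 libraries, two-sided p = 0.00195, the smallest it can give, not adjusted). In the Gjd2 gate Irf7 had 6.18 ± 3.28 CPM, against 0.488 ± 0.129 CPM in all other cells. Irf7 overlaps the last bases of Phrf1 on the opposite strand. Cdhr5, between Irf7 and Sct, had 17 UMIs.

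Farther along the chromosome, Phrf1 (log2 change 0.16 ± 0.08, edgeR adjusted p = 0.099), Rassf7 (0.23 ± 0.13, adjusted p = 0.126) and Tmem80 (-0.05 ± 0.05, adjusted p = 0.367) did not pass the test between the Slc6a9 and Gad gates, while Deaf1 (-0.17 ± 0.07, adjusted p = 0.0301) and Hras (-0.54 ± 0.04, adjusted p = 6.02e-11) were lower in the Slc6a9 gate. Of all genes, 61.2% were called in that comparison. Tmem80 was higher in the Gjd2 gate than in all other cells in 10 of 10 libraries, by 0.31 ± 0.06 (edgeR adjusted p = 0.000133). There 48.4% of all genes were called. Hras (-0.06, adjusted p = 0.197), Rassf7 (0.18, adjusted p = 0.291), Phrf1 (0.19, adjusted p = 0.073) and Deaf1 (0.03, adjusted p = 0.667) did not pass in the Gjd2 gate. In the Slc17a8 gate Drd4 stood at 5.53 ± 5.95 CPM, against 24.7 ± 3.77 CPM in all other cells (-1.66 ± 0.26, edgeR adjusted p = 5.95e-06), where Sct did not pass the test.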
